A study of Mus musculus with 30 samples.

Results

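Salidroside and hydroxytyrosol were compared through the bacteria in the feces of 12 mice, 6 given each compound, out of 30 mice in the series. The members were every mouse that the sample labels place in the salidroside or the hydroxytyrosol group. All 12 were female, of strain C57BL/6 in the labels and C57BL/6J in the methods. The age of 6 weeks in the labels is that at purchase in the methods, before acclimation and feeding. All ate the high-fructose diet (HFru, 60% fructose). Salidroside was given intragastrically at 50 mg/kg and hydroxytyrosol at 26 mg/kg, the second dose being set by conversion to the same number of moles. Feeding lasted 8 weeks in the methods and 12 weeks in the legends. The other 18 mice were control mice on normal diet, model mice on HFru given saline, and mice on HFru given tyrosol, with 6 in each group, and they appear here for reference (30 mice in 5 groups in all). Which mice shared a cage is not given in the sources used here, so cage and treatment cannot be told apart.

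Both compounds are phenylethanoids built on tyrosol. Salidroside, known from Rhodiola, carries a glucose unit on tyrosol, while hydroxytyrosol, known from olives, carries an extra hydroxyl group on the phenol ring and no sugar. Gut bacteria are identified from the gene for 16S ribosomal RNA, which every bacterium carries and which differs between lineages. The deposited tables give counts per amplicon sequence variant (ASV), a distinct sequence, and the ASVs were summed into genera, families and phyla through their taxonomic names. The methods instead describe clusters of sequences at 97% similarity, so what 1 row of the tables stands for is not settled, and ASV is used here as the tables have it. An ASV can separate strains of one genus, but 1 genome can also hold several slightly different 16S copies. A share is the percent of a mouse's counts that a taxon takes, so a rise in 1 taxon lowers the others, and shares say nothing of the absolute number of bacteria. No base letters are printed, because the ASVs are given here by number and name.

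Libraries held from 43979 to 91848 counts in the salidroside mice and from 71930 to 101386 in the hydroxytyrosol mice, and the ranges overlapped (two-sided exact permutation test, p = 0.379). At these depths the 95% Wilson interval of a phylum, family or genus share in a single mouse reached at most 0.46 percentage points to either side, which covers counting error only. The spread between mice of 1 group was far wider than that. The 12 mice together held 5547 ASVs with counts.

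Some single ASVs had counts in several mice of one group and no count in any mouse of the other. An ASV was tested if 4 or more of the 12 mice had 10 or more counts of it. Among the 225 such ASVs, edgeR's quasi-likelihood test called 24 (10.7%) at an adjusted p under 0.05, of which 17 (7.56%) were higher in salidroside mice and 7 (3.11%) were lower. All 24 had 0 counts in all 6 mice of one group, and all 24 met the filter through the other group alone. ASVs that enter a test in this way had to differ, so the count and the p-values of these 24 are no support for a difference, and without a filter edgeR called 0, with 2159 at an unadjusted p under 0.05. The values of these ASVs are therefore given as a description, with no test. In 4 of the 225 ASVs (1.78%) the 6 mice of one group all lay above the 6 of the other, namely ASV_43634, ASV_46022, ASV_64472 and ASV_2793.

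ASV_43634 belongs to Desulfovibrionaceae, a family of anaerobes that use sulfate and release hydrogen sulfide. It had between 30 and 246 counts in the 6 salidroside mice, with a lowest share of 0.0338%, a median of 0.108% and a highest of 0.287%. It had 0 counts in the 6 hydroxytyrosol mice and in all 18 mice of the other groups, and its mean share in salidroside mice was at least 36.3-fold higher, taking 3 counts per library as the limit that a count of 0 allows. The family itself was present in every mouse. Its hydroxytyrosol libraries held from 537 to 4219 counts and those of the other 18 mice from 13 to 17760. In salidroside mice ASV_43634 made up from 2.04% to 40.6% of the family's counts, with a median of 18.4%. The leading ASV of the family, ASV_60742, was the same in all 12 mice. The family's share averaged 0.940% ± 0.767 (SD, n = 6) in salidroside and 2.21% ± 1.78 (SD, n = 6) in hydroxytyrosol mice, a direction opposite to that of ASV_43634 and not past the threshold (edgeR, adjusted p = 0.591).

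**Figure D1:**
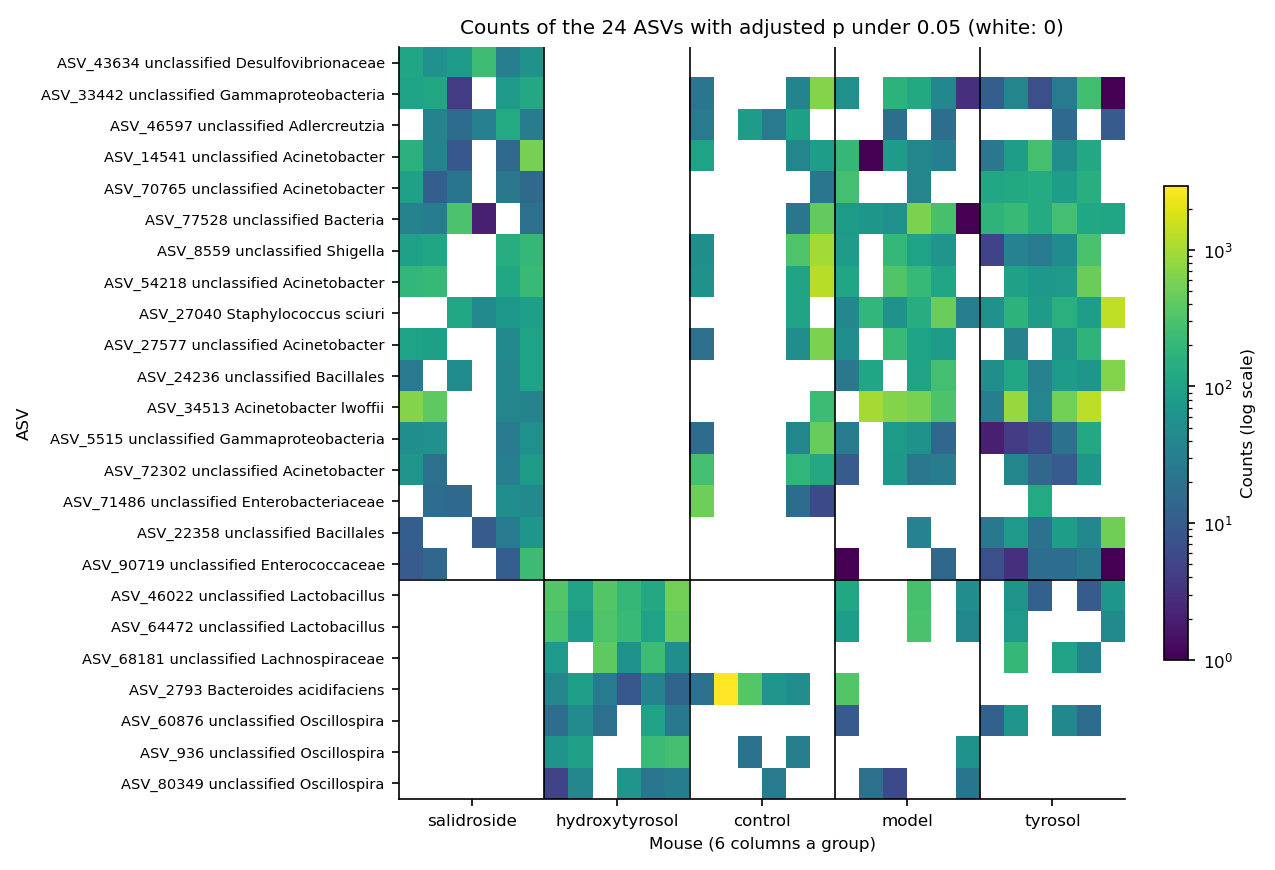
Counts, on a log colour scale, of the 24 ASVs with an adjusted p under 0.05 (rows) in the 30 mice of the series (columns, 6 a group, white for 0). The upper 17 rows have counts in salidroside and none in hydroxytyrosol mice, the lower 7 the reverse, and apart from ASV_43634 each has counts in at least 1 mouse of another group.

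ASV_46022 and ASV_64472 are both Lactobacillus, a genus of lactic acid bacteria. ASV_46022 had from 100 to 541 counts in the hydroxytyrosol mice (median share 0.290%) and ASV_64472 from 80 to 458 (median share 0.275%), and both had 0 counts in every salidroside mouse. Their levels in hydroxytyrosol mice were at least 75.2-fold and at least 67.1-fold higher. The 2 ASVs kept a nearly fixed ratio, the counts of the first being 0.930 to 1.25 times those of the second in the 6 hydroxytyrosol mice, and they are counted as 2 in the numbers above. Together they took 8.22% to 26.01% of the Lactobacillus counts in hydroxytyrosol mice. Salidroside mouse 5 had 29988 Lactobacillus counts and salidroside mouse 3 had 12450 without any of these ASVs, which allows a share of up to 0.0100% and 0.0241% of that genus. ASV_46022 also had counts in 3 model and 4 tyrosol mice and ASV_64472 in 3 model and 2 tyrosol mice, and neither in control mice.

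ASV_2793 carries the name Bacteroides acidifaciens, a common mouse gut anaerobe that breaks down complex polysaccharides. Its counts in hydroxytyrosol mice ran from 9 to 89, with a median share of 0.0323%, against 0 in every salidroside mouse, a level at least 10.6-fold higher. Bacteroides itself had counts in all 12 mice, from 33 to 631 in salidroside mice. ASV_2793 was found in 5 control mice and reached 2915 counts there, in 1 model mouse, and in 0 tyrosol mice.

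The other 4 ASVs that were lower in salidroside mice belong to Oscillospira and to Lachnospiraceae. Oscillospira is a genus of slow-growing anaerobes of the family Ruminococcaceae, and Lachnospiraceae are clostridial fermenters that include butyrate producers. Oscillospira supplied 3 of the 7 lower ASVs (42.9%) and 13 (5.78%) of the 225 tested, and Lactobacillus 2 (28.6%) and 10 (4.44%), and the difference in these shares was not tested. Of the 10 tested Oscillospira ASVs with counts in both groups, 3 had a positive and 7 a negative log2 fold change, from -2.64 to 1.46, and none was called by edgeR. The 3 Oscillospira ASVs with no count in salidroside mice were ASV_60876 and ASV_80349, each with counts in 5 hydroxytyrosol mice, and ASV_936, with counts in 4. Their bounds were at least 10.2-fold, 8.13-fold and 32.2-fold. In sum they made up 1.08% to 52.1% of the Oscillospira counts in hydroxytyrosol mice, with a median of 21.5%, and salidroside mouse 4 had 1117 Oscillospira counts with none of them. ASV_68181 of Lachnospiraceae had counts in 5 hydroxytyrosol mice, at most 406, and in 3 tyrosol mice, and in no control or model mouse (at least 37.2-fold higher in hydroxytyrosol mice).

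Of the 17 ASVs higher in salidroside mice, 11 (64.7%) were Proteobacteria, which were 65 (28.9%) of the 225 tested ASVs. Acinetobacter, a genus of aerobic bacteria of the family Moraxellaceae, supplied 6 (35.3%), against 38 (16.9%) of the tested ASVs, and the difference in these shares was not tested. Unclassified Gammaproteobacteria and unclassified Bacillales supplied 2 each, and Enterobacteriaceae another 2, one of which was named Shigella. The remaining 5 were ASV_43634, a Staphylococcus sciuri ASV, an Enterococcaceae ASV, an Adlercreutzia ASV and an ASV placed in no phylum. Of the 17, 16 had counts in model or tyrosol mice and 13 in control mice, so within the series these 16 were missing from the hydroxytyrosol group and not particular to salidroside.

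ASV_33442 of Gammaproteobacteria had from 4 to 122 counts in 5 salidroside mice and 0 in salidroside mouse 4, and was at least 30.2-fold higher. The Acinetobacter ASVs ASV_14541 and ASV_70765 were found in the same 5 salidroside mice, at most at 572 and 97 counts, and were at least 46.1-fold and at least 10.8-fold higher. ASV_46597 belongs to Adlercreutzia, a genus of Coriobacteriaceae known for turning plant isoflavones into equol. It had 17 to 131 counts in 5 salidroside mice, where it made up from 42.0% to 76.3% of the genus, and 0 counts in hydroxytyrosol mice that held 22 to 113 Adlercreutzia counts (at least 15.2-fold higher).

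Of the 17 ASVs, 7 had counts in salidroside mice 1, 2, 5 and 6 and in no other salidroside mouse. Acinetobacter took 71.1%, 59.5% and 44.1% of the counts in salidroside mice 1, 2 and 6, but 9.43% in mouse 5. The 6 Acinetobacter ASVs made up 2.42%, 2.92%, 3.29% and 2.53% of the Acinetobacter counts in mice 1, 2, 5 and 6. They made up 0.333% in mouse 3 (31 of 9311 counts), where the genus took 10.1%, and 0 of 49 counts in mouse 4. Hydroxytyrosol mouse 2 had as high an Acinetobacter share, 44.1%, as salidroside mouse 6, and held 31742 Acinetobacter counts in 158 ASVs. None of those counts fell on the 6 ASVs, which allows a share of up to 0.00945%. In hydroxytyrosol mouse 6 the same held for 15989 Acinetobacter counts, which allows up to 0.0188%.

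The number of ASVs called depended on the test and on the filter. Of the 28 tested ASVs with counts in one group alone, 24 were called, and of the 197 with counts in both, 0 were called by edgeR, where the smallest adjusted p was 0.156. The exact permutation test of shares called 0 of the 225 after adjustment, with 32 at an unadjusted p under 0.05 and a smallest adjusted p of 0.122, DESeq2 called 29, and a centred log-ratio analysis with limma called 17. Of these, 27 and 14 had counts in one group alone. The ASVs with counts in both groups, named after their values were seen, were ASV_16134 and ASV_88923 with DESeq2 (2) and ASV_67052, ASV_87123 and ASV_88923 with limma (3). ASV_16134 had counts in 1 salidroside mouse, at a mean share of 0.0018% over that group, and in 4 hydroxytyrosol mice. It met the filter through hydroxytyrosol mice alone, so its call is no support for a difference. Without salidroside mouse 6, 5, 1 or 2 the number called was 4, 8, 9 or 10, and in those fits 10, 11, 12 and 13 of the 24 still met the filter. Without hydroxytyrosol mouse 2 it was 34. Without TMM normalization, which moved the median log2 fold change of all tested ASVs by -0.60, of genera by -0.37 and of families by -0.12, 28 ASVs were called, 17 higher and 11 lower.

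ASVs that both groups shared carried most of the counts. At an even depth of 39768 counts per mouse, 2848 ASVs were found in salidroside mice and 2539 in hydroxytyrosol mice, and 552 were in both. The shared ASVs were 19.4% of those in salidroside mice and 21.7% of those in hydroxytyrosol mice, and they held 83.8% and 90.9% of the counts. Most of the rest were found once, 1861 of the 2296 ASVs limited to salidroside mice and 1819 of the 1987 limited to hydroxytyrosol mice having counts in 1 mouse. In all 12 mice 20 ASVs were present, with 30.1% of all counts, among them Akkermansia muciniphila ASV_7902, Jeotgalicoccus psychrophilus ASV_48019, Staphylococcus sciuri ASV_74631, Collinsella stercoris ASV_11531 and Lactobacillus ASV_22018. All 6 hydroxytyrosol mice had 55 ASVs in common and all 6 salidroside mice 27.

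Within 3 abundant genera the same ASV led in nearly every mouse of both groups. ASV_48019 was the most frequent Jeotgalicoccus ASV in 12 of 12 mice, with 50% to 96.1% of that genus at even depth. ASV_14106, named Acinetobacter lwoffii, led Acinetobacter in all mice except hydroxytyrosol mouse 3. ASV_22018 led Lactobacillus in all except salidroside mouse 5, where ASV_73525 did. Acinetobacter had 514 ASVs in salidroside and 185 in hydroxytyrosol mice, of which 94 were in both, that is 18.3% and 50.8%. Lactobacillus had 107 and 64, with 17 in both (15.9% and 26.6%), and Shigella 21 and 81, with 6 in both (28.6% and 7.41%). Shigella, closely related to Escherichia, is a facultative anaerobe of the Enterobacteriaceae.

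None of the 10 most abundant ASVs was called. Jeotgalicoccus psychrophilus ASV_48019 averaged 8.48% ± 13.2 (SD, n = 6) in salidroside and 17.8% ± 21.1 (SD, n = 6) in hydroxytyrosol mice, and Acinetobacter lwoffii ASV_14106 and ASV_86274 averaged 14.6% ± 15.8 and 5.42% ± 7.93, and 3.24% ± 2.59 and 0.895% ± 1.94. Shigella ASV_74633 and ASV_5205 averaged 2.28% ± 2.92 and 13.8% ± 22.4, and 0.344% ± 0.530 and 4.01% ± 6.27, while their medians were higher in salidroside mice (1.33% against 0.0624%, and 0.138% against 0.0136%). The means of Staphylococcus sciuri ASV_74631, Collinsella stercoris ASV_11531, Lactobacillus ASV_22018 and Clostridium ramosum ASV_80110 lay between 1.81% and 3.25% in salidroside and between 2.04% and 2.67% in hydroxytyrosol mice. The medians of ASV_74631, ASV_11531 and ASV_22018 were lower in salidroside mice (0.537%, 1.88% and 0.333% against 2.26%, 2.06% and 1.11%), although their means were higher. Sporosarcina ASV_15844 averaged 0.0439% ± 0.104 and 5.94% ± 13.8 (log2 fold change -7.15, 95% interval -14.04 to -0.26, edgeR, adjusted p = 0.274). Its mean rests on hydroxytyrosol mouse 4, where it took 34.1% of the library and 78.9% of Sporosarcina at even depth, while in salidroside mouse 4 another ASV, ASV_61812 (chosen after its value was seen), took 61.2% of that genus.

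Over whole communities, the result depended on the weight given to abundant ASVs. With Bray-Curtis distances at even depth, which follow the abundant ASVs, the mean distance was 0.787 within salidroside mice, 0.773 within hydroxytyrosol mice and 0.804 between the groups, and the share of the variation that lay between the groups, R2, was 0.113 (exact permutation test, p = 0.253). With Jaccard distances, which use presence alone, the distances were 0.866 within salidroside, 0.867 within hydroxytyrosol and 0.907 between groups, and R2 was 0.136 (exact permutation test, p = 0.0043). By presence 5 of 6 salidroside and 6 of 6 hydroxytyrosol mice were nearer on average to their own group, against 4 and 5 by Bray-Curtis distance. The Jaccard p stayed between 0.0022 and 0.0152 when each mouse was left out in turn, and was 0.0087 when an ASV counted as present from 10 counts upward (R2 = 0.160). Bray-Curtis distances of square-root counts gave R2 = 0.158 (exact permutation test, p = 0.0368), and those of genera 0.106 (p = 0.307). The spread around the group centroids was 0.513 ± 0.0590 (SD, n = 6) and 0.510 ± 0.0427 (SD, n = 6), with a difference of 0.0035 and a 95% interval from -0.0620 to 0.0705 (exact permutation test, p = 0.909).

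**Figure D2:**
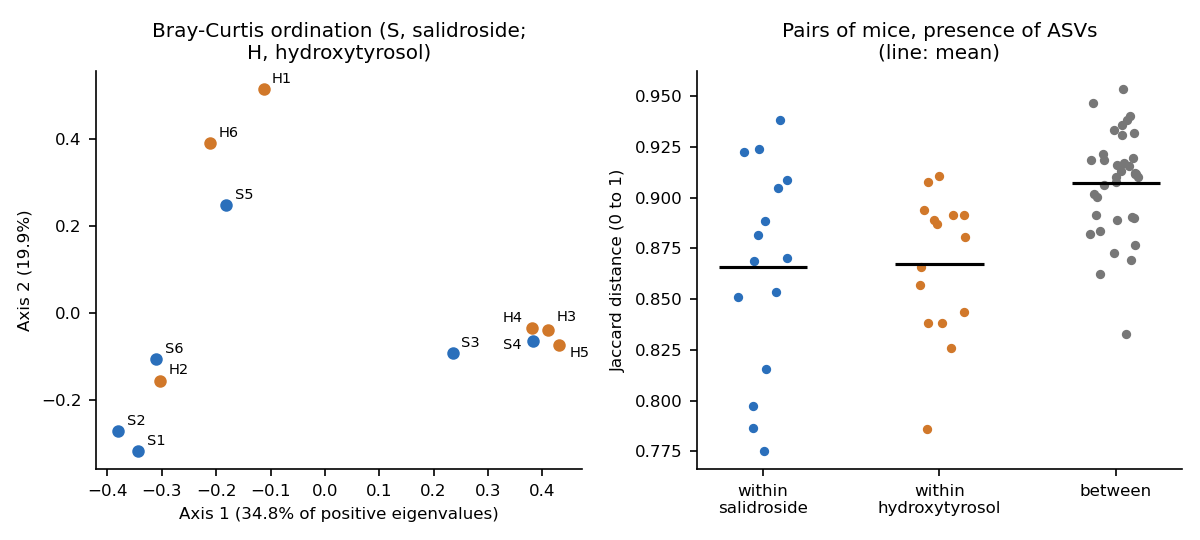
Left, the first 2 axes of a principal coordinate analysis of Bray-Curtis distances between the 12 mice (unitless), with 34.8% and 19.9% of the positive eigenvalues and each of the 3 sets of neighbouring points holding mice of both groups. Right, the Jaccard distance (0 to 1) of every pair of mice, 15 pairs within each group and 36 between, with the mean as a line, which is higher between the groups (0.907) than within them (0.866 and 0.867).

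On the first axis of that ordination the mean position was -0.0995 for salidroside and 0.0995 for hydroxytyrosol mice (exact permutation test, p = 0.266). Read by eye, with no test, the points form 3 sets that mix the treatments. Salidroside mice 1, 2 and 6 lay with hydroxytyrosol mouse 2, salidroside mice 3 and 4 with hydroxytyrosol mice 3, 4 and 5, and salidroside mouse 5 with hydroxytyrosol mice 1 and 6.

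Acinetobacter ranged from 0.0571% to 71.1% with a median of 27.1% in salidroside mice, and from 0.0312% to 44.1% with a median of 2.44% in hydroxytyrosol mice. The groups overlapped, and the mean difference of 21.2 percentage points had a 95% interval from -12.3 to 55.8 (exact permutation test, p = 0.139, adjusted p = 0.662). Jeotgalicoccus, a salt-tolerant genus of Staphylococcaceae, was at 40.9% and 23.2% in salidroside mice 3 and 4 and at 35.9%, 22.5% and 54.9% in hydroxytyrosol mice 3, 4 and 5, while no other of the 12 mice passed 1.13%. Shigella was at 70.5% and 47.3% in hydroxytyrosol mice 1 and 6 and at most 0.0898% in the other 4, whereas its highest share in salidroside mice was 9.40%, in mouse 5. Its median was 2.25% in salidroside and 0.0760% in hydroxytyrosol mice, so mean and median ran opposite ways. Sporosarcina, a spore-forming genus of Planococcaceae known from soil, was at 28.0% in salidroside mouse 4 and 43.1% in hydroxytyrosol mouse 4 and at most 2.19% elsewhere. Lactobacillus reached 33.8% and 13.6% in salidroside mice 5 and 3, while the other 4 salidroside mice, from 0.245% to 0.888%, lay below every hydroxytyrosol mouse, which ran from 0.962% to 7.71%. Its median was 0.689% in salidroside and 3.21% in hydroxytyrosol mice, and hydroxytyrosol was higher in 24 of 36 pairs.

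**Figure D3:**
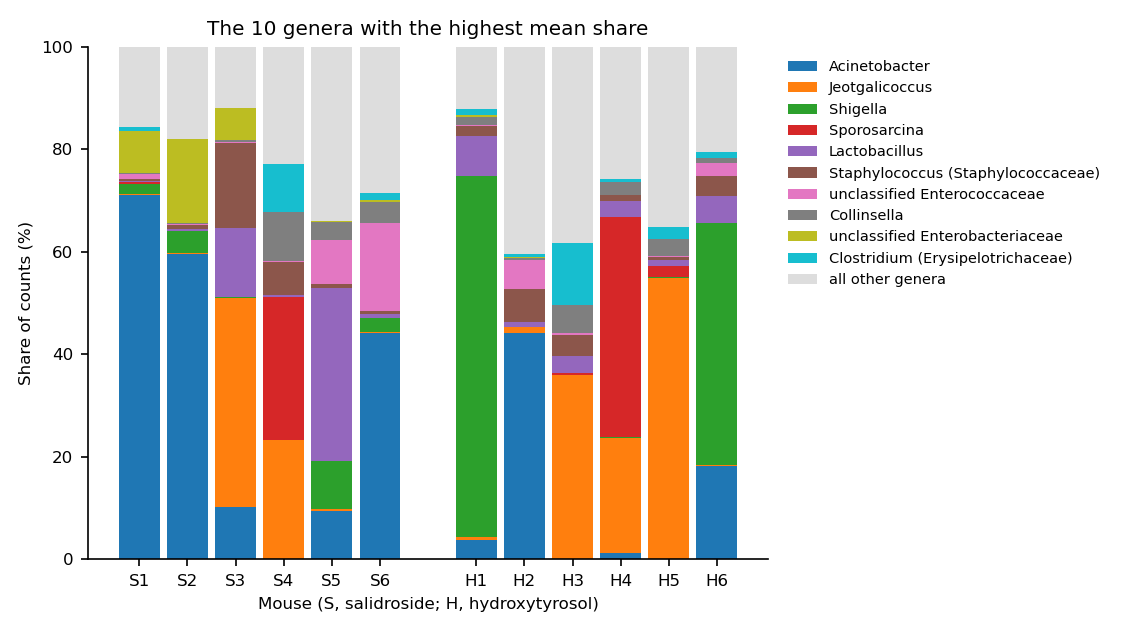
Stacked shares (percent of counts, y axis) of the 10 genera with the highest mean share in each of the 12 mice (x axis), with all other genera in grey. Acinetobacter leads in salidroside mice 1, 2 and 6 and hydroxytyrosol mouse 2, Shigella in hydroxytyrosol mice 1 and 6, and Jeotgalicoccus in salidroside mouse 3 and hydroxytyrosol mice 3 and 5.

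Of 83 genera tested, edgeR called 0 (0%) at an adjusted p under 0.05, with 8 at an unadjusted p under 0.05, and the shares of 0 genera (0%) separated the groups without overlap. DESeq2 called 6 and limma on centred log-ratios 0. None of the genera that the study named passed the threshold, and with TMM 7 of their 12 tested entries had a positive and 5 a negative log2 fold change, against 6 and 6 without TMM and 3 and 9 with centred log-ratios. Among these the widest apart was Enterococcus, a genus of facultative lactic acid bacteria, with a log2 fold change of 2.79 (95% interval -0.16 to 5.75, edgeR, adjusted p = 0.424) and shares from 0.153% to 11.3% in salidroside and 0.0371% to 2.17% in hydroxytyrosol mice. Shigella had -2.63 (-7.42 to 2.16), Acinetobacter 2.07 (-1.68 to 5.82) and Lactobacillus 1.91 (-1.26 to 5.08), and the medians of Shigella and Lactobacillus ran opposite to these values, as given above. Akkermansia, which feeds on mucus, had -0.47 (-2.89 to 1.95), Oscillospira -0.73 (-2.31 to 0.84), Collinsella, a genus of Coriobacteriaceae, 0.48 (-1.82 to 2.78; medians 1.88% in salidroside and 2.06% in hydroxytyrosol mice), Sporosarcina -1.14 (-6.74 to 4.45) and Ruminococcus -0.01 (-1.96 to 1.93). Staphylococcus was listed under a pair of families and had 1.72 (-1.19 to 4.63) within Staphylococcaceae, where its median was lower in salidroside mice (0.691% against 2.94%), and 1.93 (-0.76 to 4.63) within Planococcaceae, where it was too (0.0206% against 0.0779%). Jeotgalicoccus had 0.56 (-3.23 to 4.35), although its mean share was lower in salidroside mice, and without TMM its value was -0.82. All these intervals include 0. The other genera among the 10 most abundant were unclassified Enterococcaceae, with 2.16 (-0.86 to 5.18), and Clostridium of Erysipelotrichaceae, with -0.58 (-3.40 to 2.24). Kurthia had counts in too few mice to be tested, with 10.2% in hydroxytyrosol mouse 2, and Fusobacterium had 0 counts in the 12 mice.

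The genera with the smallest p-values in the direction of salidroside were unclassified Bacteria, unclassified Enterobacteriaceae and Helicobacter, and none passed the threshold after adjustment. Unclassified Enterobacteriaceae ran from 0.0770% to 16.4% with a median of 3.23% in salidroside mice, and from 0% to 0.270% with a median of 0.0887% in hydroxytyrosol mice. Salidroside mice 1, 2 and 3 stood above every hydroxytyrosol mouse and the other 3 did not (log2 fold change 6.07 ± 1.94 SE, edgeR, adjusted p = 0.249). Helicobacter, spiral bacteria that live in gut mucus, had a median share of 0.267% in salidroside and 0.0560% in hydroxytyrosol mice, and 4 salidroside mice were above the highest hydroxytyrosol mouse (2.15 ± 0.71 SE, adjusted p = 0.249). In the direction of hydroxytyrosol they were Atopostipes, [Ruminococcus] and Odoribacter. [Ruminococcus] is a genus of Lachnospiraceae that includes mucin degraders. Its shares ran from 0.0348% to 1.603% in salidroside and from 0.552% to 4.73% in hydroxytyrosol mice, and 4 hydroxytyrosol mice were above every salidroside mouse (log2 fold change -2.25 ± 0.87 SE, edgeR, adjusted p = 0.298). Atopostipes, first described from pig manure, had counts in 1 salidroside and 5 hydroxytyrosol mice and reached 8.15% in hydroxytyrosol mouse 5 (-6.85 ± 2.58 SE, edgeR, adjusted p = 0.298). Without 1 mouse its log2 fold change ran from -12.86 to -4.245. Odoribacter, a Bacteroidales genus that makes short-chain fatty acids, had a log2 fold change of -2.44 ± 1.15 SE (edgeR, adjusted p = 0.424), and of -3.292 to -1.161 without 1 mouse. In the DESeq2 fit unclassified Enterobacteriaceae, unclassified Bacteria, [Ruminococcus], Atopostipes, Helicobacter and, chosen here after its value was seen, unclassified Streptococcaceae had an adjusted p between 0.0011 and 0.0326. Atopostipes had counts in 1 salidroside mouse, so it met the filter of 4 mice mainly through hydroxytyrosol mice. Its p-values in fits after the filter are no support for a difference.

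**Figure D4:**
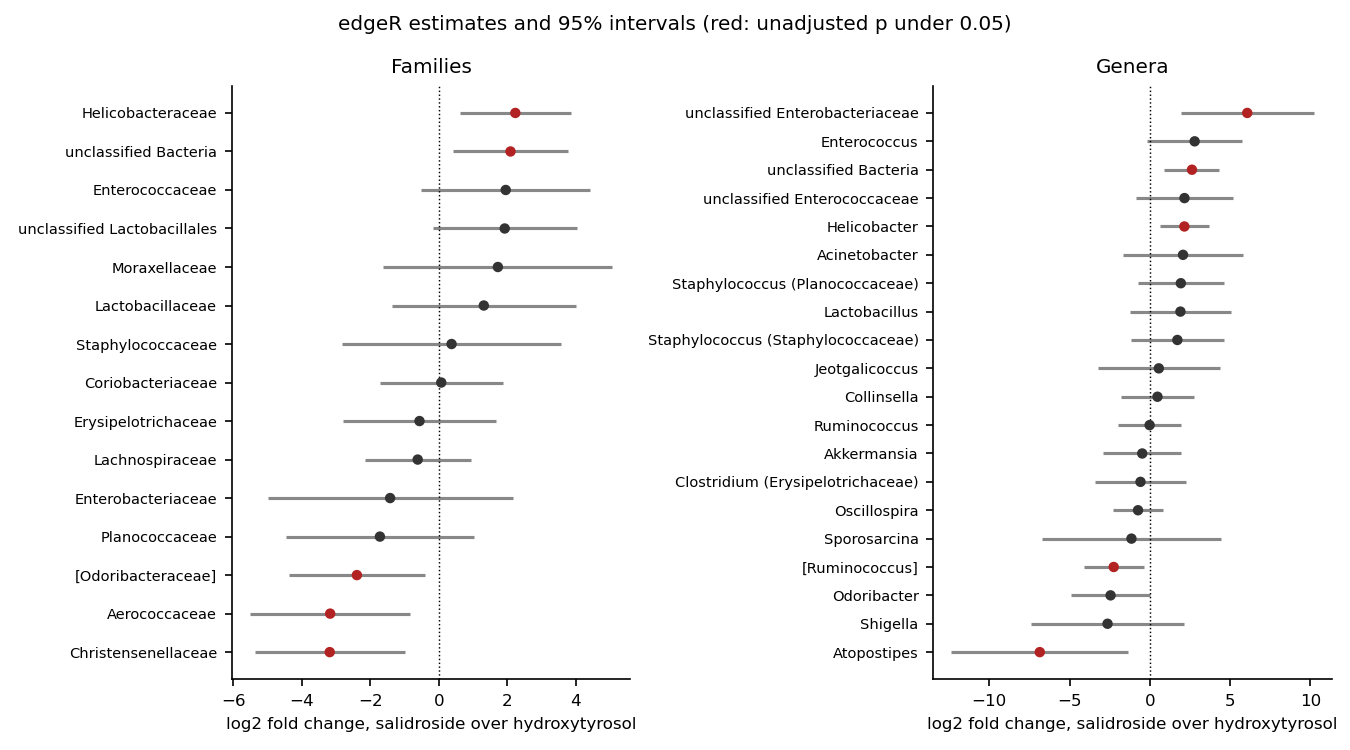
edgeR log2 fold changes of salidroside over hydroxytyrosol (x axis; points, with 95% intervals as lines) for the named families and genera (y axis). Red points have an unadjusted p under 0.05, and none has an adjusted p under 0.05.

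Of 48 families, edgeR called 0 (0%), with 5 at an unadjusted p under 0.05, and 1 (2.08%) had shares that did not overlap. That family was Christensenellaceae, clostridial fermenters known for their link to a lean body in humans. It had a highest share of 0.0098% in salidroside mice, of which 3 had no count, and a lowest of 0.0187% and a highest of 0.0454% in hydroxytyrosol mice. The mean shares were 0.0030% ± 0.0039 (SD, n = 6) and 0.0285% ± 0.0092 (SD, n = 6), and the log2 fold change was -3.19 ± 1.05 SE (edgeR, adjusted p = 0.169). The exact permutation test gave the smallest p that 6 against 6 mice allow, 0.0022, which became 0.104 after adjustment. None of the salidroside mice and all 6 hydroxytyrosol mice had 10 or more counts, so the family met the filter through hydroxytyrosol mice alone, and p-values of fits after the filter are no support for a difference. In such fits the adjusted p was 0.0183 with DESeq2, 0.0316 with limma on centred log-ratios and 0.0332 with edgeR on the even-depth table. Of its ASVs at even depth, 3 were found in salidroside and 9 in hydroxytyrosol mice, with 2 in both.

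Helicobacteraceae had a median of 0.361% in salidroside and 0.0560% in hydroxytyrosol mice, and 4 salidroside mice were above every hydroxytyrosol mouse (log2 fold change 2.24 ± 0.77 SE, edgeR, adjusted p = 0.169). Aerococcaceae, salt-tolerant cocci of the order Lactobacillales, ran from 0.0045% to 0.709% in salidroside and from 0.385% to 11.2% in hydroxytyrosol mice (-3.17 ± 1.12 SE, adjusted p = 0.169). [Odoribacteraceae], a family of Bacteroidales, ran from 0% to 0.173% and from 0.104% to 1.56% (-2.39 ± 0.95 SE, adjusted p = 0.197). DESeq2 also called Helicobacteraceae and unclassified Bacteria (adjusted p = 0.0183 for both). Unclassified Lactobacillales had a log2 fold change of 1.93 (95% interval -0.18 to 4.03, adjusted p = 0.488), and unclassified Bacteria are described with the phyla.

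No difference among the most abundant families passed the threshold. Moraxellaceae averaged 33.3% ± 30.6 (SD, n = 6) in salidroside and 11.9% ± 17.3 (SD, n = 6) in hydroxytyrosol mice, Staphylococcaceae 16.4% ± 26.2 and 22.8% ± 22.1, and Enterobacteriaceae 8.78% ± 7.87 and 19.99% ± 31.2. For Planococcaceae the means were 5.31% ± 11.2 and 12.4% ± 18.4, for Lactobacillaceae 8.24% ± 13.6 and 3.595% ± 2.56, and for Enterococcaceae 8.65% ± 12.1 and 2.39% ± 2.92. Lachnospiraceae had means of 2.79% ± 2.13 and 3.94% ± 2.53, Erysipelotrichaceae of 3.96% ± 4.82 and 5.22% ± 7.21, and Coriobacteriaceae of 3.06% ± 3.65 and 2.48% ± 1.82. For 3 of these families the medians ran opposite to the means. Lactobacillaceae had a median of 0.696% in salidroside and 3.21% in hydroxytyrosol mice, with hydroxytyrosol higher in 24 of 36 pairs. Enterobacteriaceae had 7.93% and 0.755%, with salidroside higher in 20 of 36 pairs, and its hydroxytyrosol mean rests on mice 1 and 6, at 70.8% and 47.4%, the other 4 being at most 0.855%. Coriobacteriaceae had 2.098% and 2.13%. The smallest adjusted p among these 9 families was 0.565 (edgeR), for Enterococcaceae.

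Grouped by function, no listed family or genus was called by edgeR in the table filtered by the authors. Of the gut anaerobes, DESeq2 called Helicobacteraceae, and the calls of Christensenellaceae in other fits, given above, are no support because of the filter. Among 18 tested families of gut anaerobes 0 were called, 6 had a positive and 12 a negative log2 fold change, and the median was -0.59, against -0.27 over all 48 families. The 6 tested families of clostridial fermenters had 0 called and a median of -0.69, and the 6 of Bacteroidales 0 called and a median of 0.09 (-0.13 with centred log-ratios). The 10 tested aerobic families had a median of -0.26, the 3 lactic acid families 1.31 and the 2 of the staphylococcal list (Staphylococcaceae and Aerococcaceae) -1.40, with 0 called in each. The lactic acid median is the value of Lactobacillaceae, which ran from 0.109 to 2.571 without 1 mouse. With centred log-ratios that value turned to -0.38, and the list's median was 0.13. The summed share of that list was higher with salidroside in 18 of 36 pairs. The summed share of the listed aerobic families ran from 11.2% to 75.5% in salidroside and from 2.82% to 70.2% in hydroxytyrosol mice, and that of gut anaerobes from 1.58% to 34.6% and from 7.62% to 36.8%. Of 4 genera listed because members are known to split glucosides (Lactobacillus, Bifidobacterium, Bacteroides and Enterococcus) 3 had a positive and 1 a negative log2 fold change, with a median of 1.41 against 0.53 over all 83 genera and 0 called. With centred log-ratios this turned to 1 positive and 3 negative and a median of -0.38, against -0.10 over all genera, and the median shares of Lactobacillus and Bacteroides (the latter 0.1095% and 0.212%) were lower in salidroside mice. Their summed share had a median of 8.28% in salidroside and 3.59% in hydroxytyrosol mice, and salidroside was higher in 22 of 36 pairs of mice. The mucus genera Akkermansia and Mucispirillum had 0 of 2 called, a median of -0.74 (0.23 with centred log-ratios), and summed shares from 0.0229% to 3.07% in salidroside and 0.0737% to 3.95% in hydroxytyrosol mice.

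At the level of phyla, 1 of 8 (12.5%) passed the threshold by the exact permutation test of shares. It was the remainder that was placed in no phylum, called unclassified Bacteria, with a median of 0.219% in salidroside and 0.0609% in hydroxytyrosol mice (difference in means 0.165 percentage points, 95% interval 0.0549 to 0.286, exact permutation p = 0.0043, adjusted p = 0.0346). Salidroside was higher in 35 of 36 pairs, and 5 salidroside mice were above every hydroxytyrosol mouse. The call was lost in the even-depth table (adjusted p = 0.0693), in the unfiltered table (0.0519), in totals without Acinetobacter (0.0519) and with edgeR (0.123). It was also lost without any 1 of the mice except salidroside mouse 5 or hydroxytyrosol mouse 2. ASV_77528 made up 74.9% of this remainder in salidroside mouse 3, and 25%, 40.3%, 0.837%, 0% and 8.26% in salidroside mice 1, 2, 4, 5 and 6.

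The named phyla overlapped between groups. Firmicutes ran from 7.36% to 81.8% with a median of 58.6% in salidroside and from 20.7% to 87.5% with a median of 66.9% in hydroxytyrosol mice, a difference in means of -8.99 percentage points (95% interval -52.2 to 34.2, exact permutation p = 0.649) that ran from -16.6 to -0.50 when each mouse was left out in turn. Proteobacteria ran from 3.79% to 87.2% and from 4.27% to 75.5% (difference 9.32, interval -36.0 to 54.6, exact permutation p = 0.628), and without 1 mouse the difference ran from 0.656 to 17.49. Bacteroidetes were low in both groups, with medians of 1.51% and 1.56% (difference -0.50, interval -1.88 to 0.84, exact permutation p = 0.444). Actinobacteria had medians of 2.44% and 2.27% (difference 0.647, interval -2.82 to 4.43) and Verrucomicrobia of 0.483% and 1.43% (difference -0.455, interval -2.09 to 1.09). Deferribacteres and Cyanobacteria averaged under 0.3% in both groups, with differences of -0.192 (-0.644 to 0.138) and 0.0086 (-0.0214 to 0.0440), although the median of Deferribacteres was higher in salidroside mice (0.0760% against 0.0239%). The adjusted p of these 7 phyla was 0.727 throughout. The Firmicutes-to-Bacteroidetes ratio, on the log2 scale with 1 count added, averaged 5.02 ± 3.07 (SD, n = 6) in salidroside and 4.74 ± 1.29 (SD, n = 6) in hydroxytyrosol mice (difference 0.28, 95% interval -2.53 to 3.39, exact permutation p = 0.857).

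No diversity index at even depth differed past the threshold. The Shannon index, which rises with the number and evenness of ASVs, ran from 4.23 to 6.19 with a median of 5.47 in salidroside and from 3.32 to 5.77 with a median of 4.39 in hydroxytyrosol mice. Salidroside was higher in 29 of 36 pairs, and the difference in means of 0.935 had a 95% interval from -0.0711 to 1.91 (exact permutation p = 0.0649, adjusted over 6 indices p = 0.147). Pielou evenness, which leaves the number of ASVs out, averaged 0.568 ± 0.0659 (SD, n = 6) against 0.482 ± 0.0722 (SD, n = 6), higher in 31 of 36 pairs (difference 0.0859, interval -0.0024 to 0.174, exact permutation p = 0.0563, adjusted p = 0.147), and the Simpson index 0.907 ± 0.0484 against 0.825 ± 0.0877 (difference 0.0818, interval -0.0110 to 0.174, exact permutation p = 0.0736, adjusted p = 0.147). Control mice averaged 6.25 ± 0.461 (SD, n = 6) and model mice 5.17 ± 0.620 (SD, n = 6) on the Shannon index. Without hydroxytyrosol mouse 2, which had the highest Shannon index of its group, the difference was 1.204 (exact permutation p = 0.0195), and without salidroside mouse 3 it was 1.16 (exact permutation p = 0.0281). Without the same mice the difference in Pielou evenness was 0.1075 (exact permutation p = 0.0217) and 0.105 (exact permutation p = 0.0281). Computed over genera in place of ASVs, the difference in Shannon index reversed to -0.135 (exact permutation p = 0.660).

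**Figure D5:**
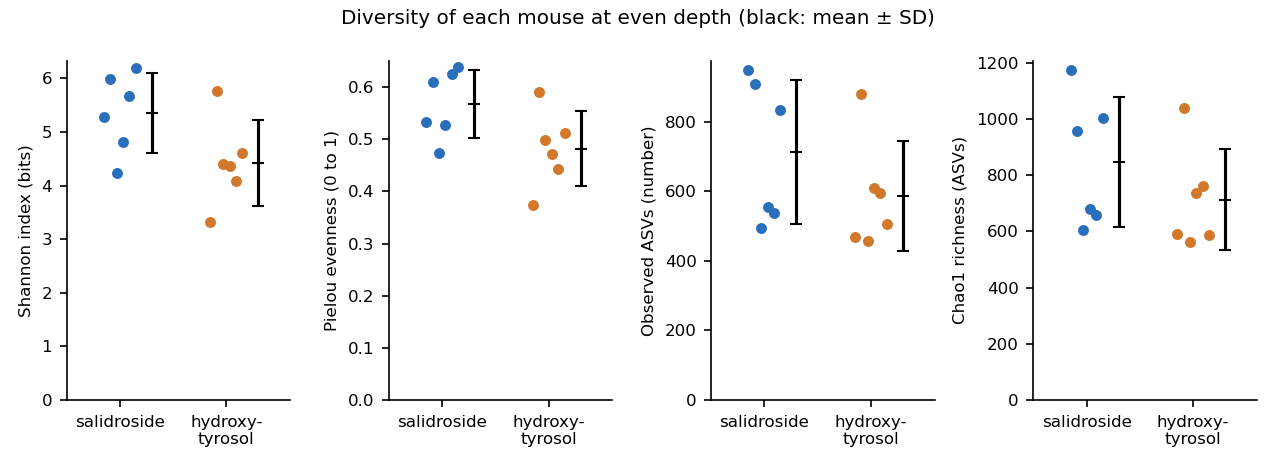
Shannon index, Pielou evenness, number of observed ASVs and Chao1 richness (y axes) of each of the 6 salidroside and 6 hydroxytyrosol mice at 39768 counts per mouse, with mean ± SD in black. The groups overlap in all 4, and hydroxytyrosol mouse 2 is the highest of its group in each.

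Richness overlapped widely. Observed ASVs ran from 494 to 950 with a median of 695 in salidroside and from 456 to 881 with a median of 550.5 in hydroxytyrosol mice (difference in means 127, interval -119.7 to 378.5, exact permutation p = 0.273, adjusted p = 0.358). Chao1, which adds an estimate of the ASVs missed to those observed, averaged 847 ± 230.7 (SD, n = 6) and 713 ± 180 (SD, n = 6), a difference of 134 (interval -139 to 413, exact permutation p = 0.299, adjusted p = 0.358). Without 1 mouse the difference ran from 68.45 to 199.1 for Chao1 and from 79.67 to 185.9 for observed ASVs. Good's coverage, the share of counts not from ASVs seen once, was 0.996 in both groups (difference -0.0003, interval -0.0020 to 0.0013, exact permutation p = 0.671).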

How the data were processed

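Raw counts per ASV were deposited by the authors with a taxon for each, without normalization. Reads were merged with FLASH 1.2.11, filtered with QIIME 1.7.0 and cleared of chimeras with UCHIME, and cutadapt is named in the submitters' processing notes. The methods describe clusters at 97% similarity, whereas the deposited tables name ASVs and the deposited read log has a denoising step. The taxonomy version is not given in the sources used here. Shares and counts came from the table filtered by the authors, and diversity and distances from their table at 39768 counts per mouse. A further file of reads per processing step was used in no comparison given here. The lists of taxa, the comparison and the tests were chosen with earlier results of these data known.

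Groups came from the labels, and n is the number of mice. Shares, indices and the ratio were compared by two-sided exact permutation tests over the 924 assignments of 6 and 6 mice, whose smallest p is 0.0022, with intervals from the same test. Counts per family, genus and ASV were compared with edgeR 4.0.16 (quasi-likelihood, TMM, at least 10 counts in at least 4 mice), and p-values were adjusted by Benjamini-Hochberg over the taxa of a level. Alternatives were DESeq2 1.42.0, limma 3.58.1 on centred log-ratios (0.5 added), other tables, other filters and each mouse left out. All 8 tested phyla were named; genera were those the study names; at each level the 3 smallest p-values per direction (or 5 called), taxa without overlap and the 10 most abundant were added, and any other ASV was named after its values were seen. Procedures were also run on simulated data, with results not given here. For edgeR and limma the simulated counts came from taxa that had passed the filter, so the simulation is no support for the calls. Within groups, 0 of 30 pairs of mice had identical counts, and 13.5% of the counts carried no named genus. Counting limits take reads as independent, which PCR copies are not.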

Additional observations from a re-analysis of the deposited data

Results flagged for a closer look

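In 98 sets of 6 values examined, each a measure in a group, 19 had 1 mouse far from the other 5 (Dixon's test). Chance gives about 1 in 20 only for normally distributed values. Shares with most mice near 0, such as those of Kurthia, are not so distributed, so the 19 cannot be set against that rate. Hydroxytyrosol mouse 2 had 881 observed ASVs (median of the other 5 mice 506), an unclassified Bacteria share of 0.1571% and a Kurthia share of 10.25%. Hydroxytyrosol mouse 3 had 19.7% Erysipelotrichaceae and 12.1% Clostridium of that family, and hydroxytyrosol mouse 4 had 43.13% Sporosarcina and 0.04542% Christensenellaceae. Hydroxytyrosol mouse 5 had 1.315% Deferribacteres and 8.147% Atopostipes, and hydroxytyrosol mouse 6 had 1.559% [Odoribacteraceae] and 1.497% Odoribacter.

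In the salidroside group, mouse 4 had 28.05% Planococcaceae, 27.97% Sporosarcina, 9.419% Clostridium of Erysipelotrichaceae, 1.603% [Ruminococcus] and 0.0921% Cyanobacteria. Salidroside mouse 3 had 16.61% Staphylococcus of Staphylococcaceae and 0.02069% Atopostipes, and salidroside mouse 6 had 0.5974% Kurthia. A family and its main genus repeat the same counts, so these are fewer than 19 separate events.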

How the results depend on the processing

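Of 139 alternative values for counts, indices, distances and phyla, 98 kept their direction and side of the threshold, as did 506 of 591 for the 55 named taxa of the fits. Causes of the changes were not tested. Differences are salidroside minus hydroxytyrosol, and values of families, genera and ASVs are log2 fold changes unless named as shares.

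The number of ASVs called was 24, but 8 with at least 50 counts required, and 0 without a filter, at the level of species, by the exact permutation test of shares and by Fisher's exact test of presence (edgeR unadjusted p under 0.05 in 2159 without a filter and 11 of species, and 32 and 14 in the exact tests). Without 1 mouse it ran from 4 to 34. The 1 phylum called became 0 in the even-depth and unfiltered tables, without Acinetobacter, with the replicate block and with edgeR, and ran from 0 to 1 without 1 mouse. Families called became 3 with DESeq2, 1 with centred log-ratios in limma and 1 in the even-depth table, and genera 6 with DESeq2 and 4 without a filter (Atopostipes, Herbaspirillum, Morganella and unclassified Helicobacteraceae, named after their values were seen).

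R2 rose from 0.1133 to 0.1356 with Jaccard distances, 0.1597 with those of ASVs at 10 or more counts (chosen after seeing the data) and 0.1583 with square-root counts, all past the threshold. Over genera the differences turned to -0.1345 (Shannon), -8.056 (Chao1), -6.833 (observed), -0.01347 (Pielou) and 4.61e-05 (Good's coverage). Pielou passed the threshold as a difference of 4.333 mean ranks and Good's coverage at -0.0008472 in the filtered table. Without 1 mouse Shannon ran from 0.714 to 1.204, Simpson from 0.0584 to 0.1047, Pielou from 0.06435 to 0.1075, Good's coverage from -0.0007619 to 0.0001207, the spread from -0.03175 to 0.03358 and the Firmicutes-to-Bacteroidetes log2 ratio from -0.7325 to 0.9208. Simpson passed without salidroside mouse 1 (exact permutation p = 0.0498) and hydroxytyrosol mouse 2 (0.0173). Pielou passed without salidroside mouse 3 (0.0281) and hydroxytyrosol mouse 2 (0.0217), as did Shannon. Without 1 mouse the shares also ran from 0.6556 to 17.49 percentage points for Proteobacteria, -16.6 to -0.5047 for Firmicutes, -0.7867 to -0.1242 for Bacteroidetes and -0.8423 to -0.0245 for Verrucomicrobia, with no change of sign. The spread was -0.0005574 with Jaccard distances and -0.01937 over genera.

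Phyla that changed sign were Actinobacteria (-0.6667 mean ranks, edgeR -0.07462, -0.5943 to 1.266 without 1 mouse), Deferribacteres (1.333 mean ranks, -0.2498 to 0.01312), Cyanobacteria (edgeR -0.02854, -0.004332 to 0.01503), Firmicutes (edgeR 0.8254) and, without Acinetobacter, Bacteroidetes (0.9738), Proteobacteria (-0.6235) and Verrucomicrobia (0.4143).

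With centred log-ratios the sign turned for Staphylococcaceae (-1.625), Enterobacteriaceae (1.734), Lactobacillaceae (-0.3834), Coriobacteriaceae (-0.3155), Jeotgalicoccus (-1.405), Lactobacillus (-0.5172), Staphylococcus of Staphylococcaceae (-0.3996) and of Planococcaceae (-0.8279), Shigella (1.082), Collinsella (-0.738), ASV_74633 (0.4525), ASV_74631 (-0.6796), ASV_11531 (-1.067), ASV_22018 (-0.7553) and ASV_80110 (-2.718). Without TMM it turned for Staphylococcaceae (-0.4742), Jeotgalicoccus (-0.8204) and ASV_80110 (-0.5618), and without a filter for Erysipelotrichaceae (0.06257) and ASV_48019 (0.1533). As shares Staphylococcaceae, Jeotgalicoccus and ASV_80110 had -6.374, -8.333 and -0.8607 percentage points. Jeotgalicoccus had -0.2628 in the even-depth table and -0.3119 without Acinetobacter. ASV_80110 had -0.3801 with DESeq2, -0.1895 with at least 50 counts, -0.2653 in all 5 groups, -0.2046 at even depth and a difference of -1 mouse by presence, and ASV_48019 had 0.6789 in all 5 groups.

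Equal replicate numbers in the labels showed no clear pairing of the mice, with correlations of equal numbers from -0.1857 to 0.3884, 3 of 6 over 0.1, and 0 of 6 salidroside mice most like their number. So few correlations cannot exclude a pairing. For most of these mice the replicate number differs from that in the sample description, and a pairing by the latter was not tested. With the replicate block R2 kept its value of 0.1133 with p = 0.0313 (exact permutation), the smallest a block allows, 22 ASVs were called, and the sign turned for Staphylococcaceae (-1.906), Enterobacteriaceae (1.558), Lactobacillaceae (-1.116), Coriobacteriaceae (-0.5569), Jeotgalicoccus (-0.8558), Lactobacillus (-0.9246), Staphylococcus of Staphylococcaceae (-0.2817) and of Planococcaceae (-0.8976), Collinsella (-0.5361), ASV_74631 (-0.07937), ASV_11531 (-0.4446), ASV_22018 (-0.543) and ASV_80110 (-1.996).

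Without 1 mouse the sign turned within these ranges, Staphylococcaceae -1.585 to 0.6283, Enterobacteriaceae -1.808 to 0.7583, Erysipelotrichaceae -1.07 to 0.2765, Coriobacteriaceae -0.3495 to 0.6867, Jeotgalicoccus -2.099 to 1.085, Staphylococcus of Staphylococcaceae -0.9598 to 1.98 and of Planococcaceae -0.3704 to 2.187, Sporosarcina -5.758 to 3.233, Ruminococcus -0.8817 to 0.2424, Akkermansia -1.09 to 0.1152, Clostridium of Erysipelotrichaceae -1.93 to 0.6338, ASV_48019 -1.732 to 1.388, ASV_74631 -0.7052 to 1.926, ASV_11531 -0.2681 to 1.238 and ASV_80110 -2.276 to 0.8332. None of these taxa was called. A count of 0 allows up to 3 counts per library, and whether more than 6 mice a group would change the calls was not tested.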
